A study of Caenorhabditis elegans with 8 samples.

Results

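The lin-4 family of Caenorhabditis elegans was followed on miRNA arrays from a spaceflight experiment. Its members were the probes whose deposited name equals cel-lin-4 or cel-miR-237, with or without an arm suffix. The array held 2 such probes among 156 named for C. elegans miRNAs, and neither name carried a suffix. Total RNA of whole worm populations was labelled with the dye Hy3 and hybridised to 1-colour arrays, with 4 spots per probe. There were 8 arrays, 1 for each of 2 strains in 4 conditions. The strains were wild-type N2 and the mutant LS292, whose dys-1(cx18) allele affects the worm dystrophin gene. Dauer larvae, a stress-resistant larval stage, were loaded before the Shenzhou-8 launch and flown for 16.5 days at 23 °C. Static flight combined microgravity with 1.92 mGy of space radiation. The 1g centrifuge flight added centrifugation in orbit and received 2.27 mGy. Ground control worms were kept in a static slot of the same hardware for 16.5 days at 23 °C, starting 2 days later than the flight. Worms of these 3 conditions were collected after 7 h. The fourth condition, called no transport here, stayed in an incubator and was not taken to the launch site, and its titles call it a transport control. Its duration, temperature and collection time are not given in the labels, nor is the developmental stage of any sample at collection. The labels state that no sample was repeated, so a difference within a strain rests on 1 array against 1 array.

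Lin-4 is a miRNA that times larval development. It represses the lin-14 and lin-28 mRNAs after the first larval stage, so that cells pass from early to later larval fates. MiR-237 shares the seed of lin-4, the bases near the 5′ end that pair with targets, and both belong to the family known as miR-125 in mammals. MiR-237 has been linked in worms to the radiation response through the transcription factor gene jun-1. In the RefSeq annotation of WBcel235 both names matched 1 miRNA gene each. The lin-4 gene lies on chromosome II within the span of the protein-coding gene F59G1.4 and the non-coding RNA gene F59G1.10. The mir-237 gene lies on chromosome X, and no other annotated gene overlaps it.

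Signal was low for most named probes. A spot median is the median over a probe's 4 spots of foreground minus local background intensity, in scanner units, and 50 was taken as the detection level. Between 11 and 19 of the 156 named probes reached 50 on a given array. The 96 empty spots had medians of -1.5 to 3 per array. The share of all spots whose local background was over 3 times the array's median ran from 4.5% to 25.1%, with the highest share on the N2 static flight array. The arrays give intensities and no counts, so their number and the spread of the 4 spots limit the precision. In populations of whole worms, fewer cells of a type and less RNA per cell cannot be told apart.

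The cel-lin-4 probe was below the detection level on all 8 arrays, as were most probes. It was among the 126 of 156 named probes that reached 50 on no array. In N2 its spot median was 1.5 in static flight, 7 on the centrifuge, -8.5 in the ground control and 18.5 without transport. In LS292 it was 1.5 in static flight, -16.5 on the centrifuge, -5 in the ground control and 7 without transport. Of the 8 values, 5 lay above 0 and 3 below. The 2 no-transport arrays and the N2 centrifuge array gave the highest values, and both ground control arrays were below 0. None of the 32 lin-4 spots reached 50, and the brightest was 26, on the N2 no-transport array. On 7 arrays the lin-4 spot median lay within -2 to 3 units of the array's median named probe. The exception was the LS292 centrifuge array, at -21.25. One lin-4 spot read -1157 on the N2 static flight array, where its local background was 1329, and -524 on the LS292 centrifuge array, where its local background was 637. With spots of such high background left out, the lin-4 spot medians ran from -8.5 to 18.5.

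The cel-miR-237 probe reached the detection level on 5 of 8 arrays. In N2 its spot median was 69 in static flight, 109 on the centrifuge, 43.5 in the ground control and 56.5 without transport. In LS292 it was 102.5 in static flight, 53.5 on the centrifuge, 38.5 in the ground control and 41.5 without transport. All 4 flight arrays were above 50, and 1 of the 4 ground arrays was. The 3 arrays below the level were at 38.5, 41.5 and 43.5, and the lowest 2 above it were at 53.5 and 56.5. MiR-237 was 1 of 20 named probes with a spot median of 50 or more on at least 2 arrays, 12.8% of the 156. Of its 32 spots, 14 reached 50, with 2 to 4 of the 4 spots on each flight array and 0 to 2 on each ground array. The spots of an array are repeats of 1 sample. Of the miR-237 spots, 2 had a high local background. They read -543 on the N2 static flight array and -72 on the N2 centrifuge array. Without them the N2 medians were 115 in static flight and 116 on the centrifuge, and the other 6 values stayed as they were.

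**Figure D1:**
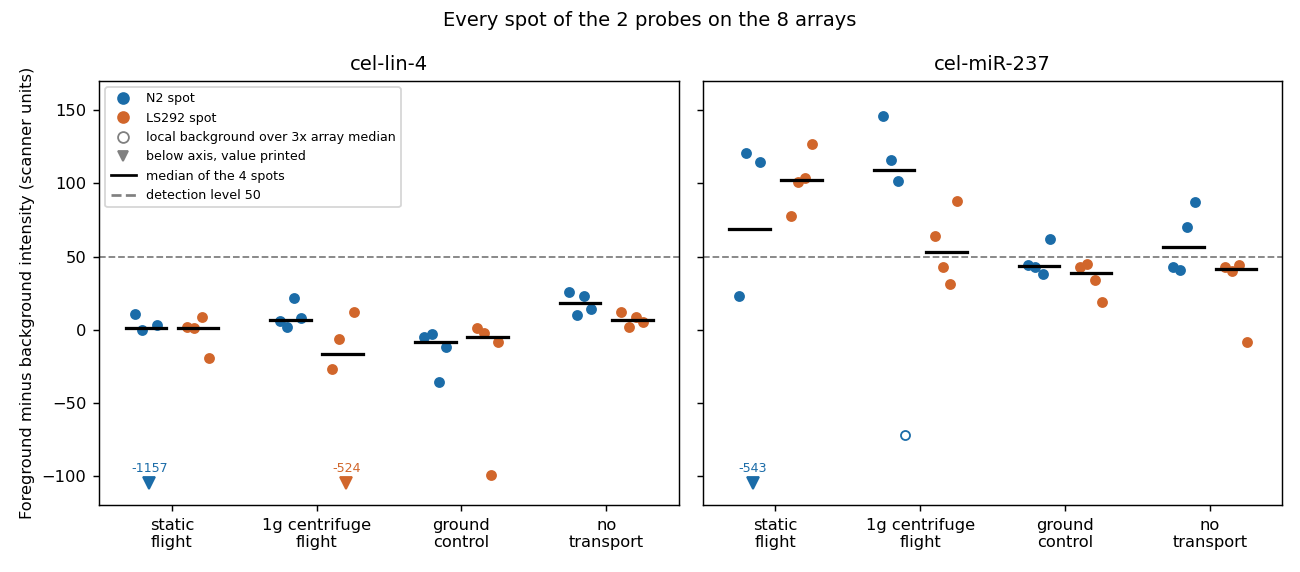
Foreground minus background intensity (scanner units) of each of the 4 spots per array for cel-lin-4 (left) and cel-miR-237 (right), by condition and strain. Black bars are spot medians and the dashed line is the detection level of 50, which no lin-4 spot reached, while the miR-237 median was above it on 5 arrays.

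The foreground of the spots was also read without subtracting the local background. For lin-4 the foreground median was 55 to 77 and the local background 46.5 to 84.5, and the background exceeded the foreground on 3 arrays, the LS292 centrifuge array and both ground control arrays. For miR-237 the foreground median was above the local background on every array. It was 177.5 in N2 and 157 in LS292 in static flight, and 159 and 121 on the centrifuge. In the ground control it was 113 in N2 and 106.5 in LS292, and without transport 113.5 and 93.5. The flight values, from 121 to 177.5, did not overlap the ground values, from 93.5 to 113.5. Of the 156 named probes, 1 (0.641%), which is miR-237, had all flight foreground medians above all ground ones, and 3 had the reverse. The local background of the miR-237 spots averaged 60.0 on flight arrays and 61.6 on ground arrays.

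**Figure D2:**
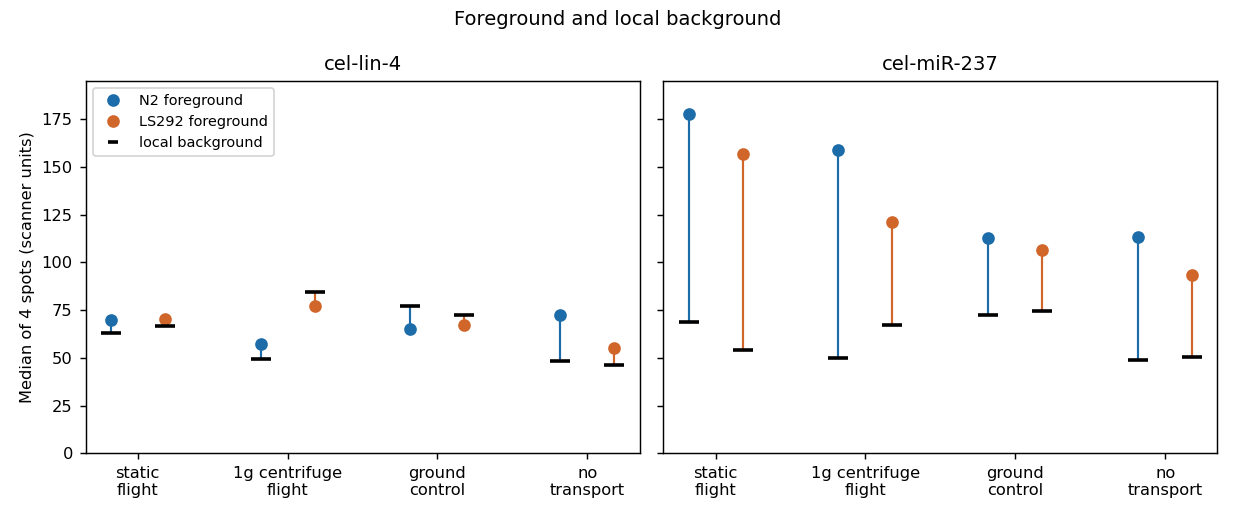
Median foreground (points) and median local background (black dashes) of the 4 spots of each probe per array, in scanner units. The lin-4 foreground lies below its background on 3 arrays and is farthest above it on the N2 no-transport array, at 72.5 against 48.5, whereas the miR-237 foreground lies above its background on all arrays and highest on the N2 static flight array, at 177.5.

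Brightness depends on the probe as well as on the miRNA, so ranks among probes describe signal and not abundance. By spot median miR-237 ranked between 8 and 20 of the 156 named probes, with ranks of 8 to 12 on flight arrays and 13 to 20 on ground arrays. Lin-4 ranked between 61 and 153, with the lowest position on the LS292 centrifuge array. The miR-237 spot median exceeded 93 to 96 of the 96 empty spots on each array. The lin-4 spot median exceeded between 4 and 93 of them. The upper 5% of empty spots began at 6 to 15 units, and lin-4 passed that bound only on the N2 no-transport array, with 18.5 against 14.25.

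**Figure D3:**
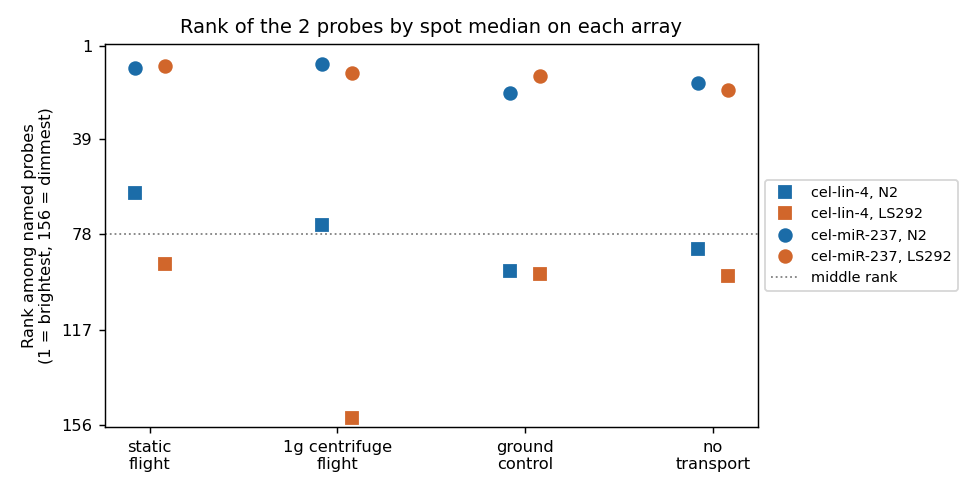
Rank of cel-lin-4 (squares) and cel-miR-237 (circles) by spot median among the 156 named probes on each array, with 1 the brightest. MiR-237 stays between ranks 8 and 20, and lin-4 lies between 61 and 153.

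Both flight conditions were set against both ground conditions to ask whether flight moved the family. The miR-237 spot median was 83.5 ± 26.6 (SD, n = 4 arrays) in flight and 45.0 ± 7.94 (SD, n = 4) on the ground, a difference of 38.5 units. The groups overlapped by 1 array, since the N2 no-transport value of 56.5 was above the LS292 centrifuge value of 53.5. The difference did not pass the two-sided exact permutation test over the 70 ways of labelling 4 arrays (p = 0.0571, 0.229 adjusted over the 4 such tests). No named probe had an exact permutation p under 0.05 in this comparison (0 of 156, 0%), the smallest possible being 0.0286. A single p of 0.0286 adjusts to 0.114 over 4 tests, so miR-237 alone could not have passed after adjustment in this design. Another named probe, miR-82, had the same unadjusted p with higher values on the ground, so 2 of 156 were at or under it. With the strains kept apart, the permutation p was 0.0556, the smallest that the 36 relabellings allow. The foreground medians, a measure added after the data were seen, averaged 153.6 ± 23.6 (SD, n = 4) in flight and 106.6 ± 9.3 (SD, n = 4) on the ground. Their exact permutation p was 0.0286, the smallest possible (0.114 adjusted over 4 tests). That p restates that the foreground values of the groups did not overlap. Of the 156 named probes, 1 (miR-237) had no overlap in this direction and 3 had none in the reverse. With the mean of the 4 spots, which takes in the spots at -543 and -72, the miR-237 difference was -2.75 units in place of 38.5 (exact permutation p = 0.971). With spot medians scaled by each array's constant, the median of 5 miRNAs detected on all arrays, it was 21.4 units (exact permutation p = 0.371), and the constants were 201.5 to 294 on flight arrays and 128 to 234.5 on ground arrays.

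The lin-4 spot median was -1.62 ± 10.2 (SD, n = 4) in flight and 3.00 ± 12.3 (SD, n = 4) on the ground, which differed by -4.62 units (exact permutation p = 0.571, 0.571 adjusted over 4 tests). Both groups lay below the detection level and their ranges overlapped, so no difference in lin-4 was detectable with this probe. A group of 7 named probes (4.49% of 156) was at 50 or more on all 4 flight arrays, namely let-7, miR-55, miR-56, miR-84, miR-237, miR-257 and miR-1823. By a count made after the values were seen, miR-237 was the 1 among them that reached 50 on fewer than 2 ground arrays.

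Static flight and the ground control differ in radiation, in microgravity, in the flight itself and in the start, which was 2 days later for the ground control. In N2 the miR-237 spot median was 69 in static flight and 43.5 on the ground, a difference of 25.5 units. Without the N2 spot at -543 the static value was 115 and the difference 71.5 units. In LS292 it was 102.5 and 38.5, a difference of 64 units. Static flight was above the ground control in both strains, with the ground values below the detection level. All 8 arrays were fitted with limma, with terms for strain and condition, on background-corrected and quantile-normalized log2 values of 20 miRNAs. The fitted miR-237 difference was log2 -0.018 (SE 0.12, limma adjusted p 0.991), and 0% of the 20 were called. The sign is opposite to that of the spot medians. The fitted values average the 4 spots, which on the N2 static flight array include the one at -543. Whether that spot turned the sign was not tested. With high-background spots left out the fitted difference was log2 0.11. It was 0.337 with all spots kept and no background correction, and 1.12 with the authors' normalized ratios. None of these passed the threshold.

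The centrifuge flight and the ground control differ in radiation, the flight itself and the later start of the ground control, without weightlessness. The N2 spot medians of miR-237 were 109 on the centrifuge and 43.5 on the ground, 65.5 units apart. The LS292 values were 53.5 and 38.5, which is 15 units apart. The centrifuge array was the brighter in both strains. The fitted difference was log2 0.041 (SE 0.12, limma adjusted p 0.846), and 1 of 20 miRNAs was called (5.0%), which was not miR-237. Both flight comparisons use the same ground arrays.

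Within the flight, static slots and the centrifuge differ in gravity and also in the measured radiation dose, 1.92 and 2.27 mGy. For miR-237 all 4 arrays were above the detection level. In N2 the static spot median of 69 was 0.63 of the centrifuge value of 109, and in LS292 the static value of 102.5 was 1.92 times the centrifuge value of 53.5. These differences were -40 and 49 units. Without high-background spots N2 had 115 in static flight and 116 on the centrifuge, a difference of -1, while LS292 stayed at 49. In the foreground static flight was above the centrifuge in both strains, with 177.5 and 159 in N2 and 157 and 121 in LS292. The difference between strains was not tested. The fitted difference was log2 -0.060 (SE 0.12, limma adjusted p 0.909), with 5.0% of the 20 miRNAs called and miR-237 not among them.

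The ground control was set against the worms kept in an incubator without transport. The miR-237 values of 43.5 and 56.5 in N2 and of 38.5 and 41.5 in LS292 were 13 and 3 units apart, with the ground control lower in both. In the foreground the values were 113 and 113.5 in N2 and 106.5 and 93.5 in LS292, so the LS292 direction turned. Only the N2 no-transport array passed 50. The fitted difference was log2 0.030 (SE 0.12, limma adjusted p 0.892), and 0% of the 20 were called.

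Over both flight conditions against both ground conditions the same fit gave miR-237 a log2 difference of 0.027 (SE 0.087, limma adjusted p 0.918), with 0% called. Median scaling turned its sign (log2 -0.068). After background correction, spots of the family from -36 to 62 units on the N2 ground array lay between log2 8.29 and 8.42. How far this sets the size of the fitted differences was not tested. Lin-4 did not pass the filter for this fit. In the fit of all 156 named probes its differences ran from log2 -0.100 to 0.078 over the 6 comparisons, with limma adjusted p of 0.860 to 0.997. That fit called 0% or 0.641% of the probes, depending on the comparison, and neither lin-4 nor miR-237 in any.

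**Figure D4:**
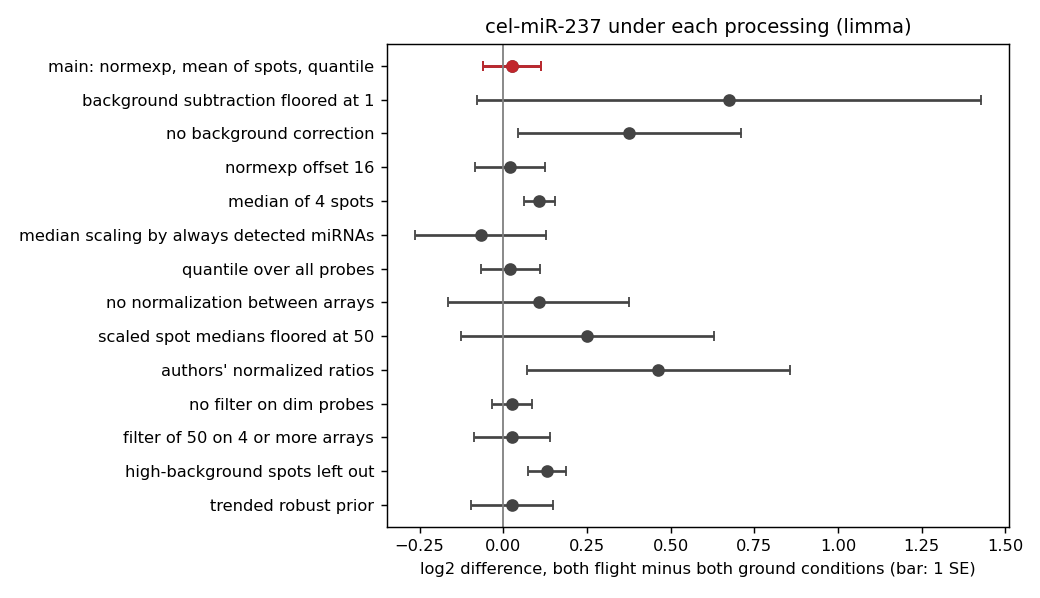
Log2 difference of cel-miR-237 between both flight and both ground conditions from the limma fit under each way of processing the intensities, with bars of 1 SE; the main setting, in red, is 0.027. Median scaling gave the lowest estimate, -0.068, and background subtraction the highest, 0.67, and none passed the threshold.

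LS292 and N2 were compared because they differ in dys-1. The miR-237 spot median was 59.0 ± 29.7 (SD, n = 4 conditions) in LS292 and 69.5 ± 28.3 (SD, n = 4) in N2 (difference -10.5, exact permutation p = 0.514, 0.571 adjusted). By spot median LS292 was the brighter in static flight, by 33.5 units and 1.49 times. That direction turned without the N2 spot at -543, with 102.5 in LS292 and 115 in N2, and in the foreground, with 157 and 177.5. LS292 was the dimmer on the centrifuge, by -55.5 units and 0.49 times. It was also lower in the ground control, by -5 units, and without transport, by -15 units. The lin-4 spot median was -3.25 ± 10.1 (SD, n = 4) in LS292 and 4.62 ± 11.3 (SD, n = 4) in N2, a difference of -7.88 units (exact permutation p = 0.4, 0.571 adjusted). With the conditions kept apart, the exact permutation p was 0.625 for miR-237 and 0.5 for lin-4. The 16 relabellings of that test allow no p under 0.125, so neither could have passed. In the test without pairing, none of the 156 named probes (0%) had a permutation p under 0.05 between the strains. The fitted miR-237 difference was log2 0.039 (SE 0.087, limma adjusted p 0.947), with 0% of 20 called, and its sign was the reverse of that of the spot medians.

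In the authors' deposited table the normalized miR-237 ratio was 0.337 in N2 and 0.509 in LS292 in static flight, and 0.439 and 0.182 on the centrifuge. It was 0.186 and 0.195 in the ground control and 0.441 and 0.237 without transport, also in the authors' deposited table. On this scale the N2 no-transport array stood as high as the N2 centrifuge array, and the LS292 centrifuge array was the lowest of the 8. The authors' deposited table gives fold changes of 2.38 for N2 without transport over the ground control and 0.383 for the LS292 ground control over static flight. For lin-4 the authors' deposited table holds a ratio on 5 arrays and none on the 3 where the spot median was below 0. It lists a lin-4 fold change of 19.8 for N2 without transport over static flight. That value rests on spot medians of 18.5 and 1.5, both below the detection level, divided by array constants of 128 and 205.

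The other miRNAs of larval timing were read from a list of the let-7 family. All 7 were on the array, and 3 reached 50 on 2 or more arrays, against 12.8% of all named probes. Let-7, which acts at the transition to the adult, was above 50 on all 8 arrays, with spot medians of 128 to 655. MiR-84 was above it on all 8 as well, at 59.5 to 201.5. MiR-795 reached it on 2 arrays, at 85.5 in N2 static flight and 57 in N2 without transport. MiR-48 and miR-241, which act with miR-84 at earlier larval transitions, were below 50 on every array, as were miR-793 and miR-794. The same held for 126 of the 156 named probes. None of the 3 that passed the filter was called in any of the 6 comparisons. Of 7 miRNAs listed for dauer and starvation, 1 reached 50 on 2 or more arrays, a share close to the 12.8% of all named probes. It was miR-81, with 5 arrays at 50 or more and a highest value of 242.5, and of the rest miR-82 reached 50 on 1 array.

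Of the 19 other miRNAs past the filter, miR-124 had the highest Pearson r with miR-237 over the 8 arrays on the normalized log2 scale (Pearson r 0.72, Spearman rho 0.43). MiR-1823 (r 0.54, rho 0.48) and miR-84 (r 0.33, rho 0.42) came next by r. Both miR-237 and miR-124 were lowest on the N2 static flight array, at log2 7.63 and 7.64. The miR-237 value there averages in the spot at -543, and the part of that spot in the likeness was not tested. Without the 2 arrays farthest from the miR-237 median, r was -0.31 for miR-124, 0.21 for miR-1823 and 0.19 for miR-84. Leaving out the most extreme values narrows the range, which can itself lower r, so no source of the likeness is read from this. Lin-4 was below the detection level on all 8 arrays, so its likeness to other probes was computed from values near background. For lin-4 the closest of 20 were miR-52 (r 0.90, rho 0.58), miR-257 (r 0.55, rho 0.11) and miR-799 (r 0.47, rho 0.63). Without the 2 farthest arrays they were -0.04, -0.66 and 0.52. All of these values share the arrays and their quantile normalization.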

How the data were processed

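Hy3-labelled total RNA (1 µg per array, per the labels) from 8 worm samples was read on 1-colour arrays. Each array had 10080 spots, with an intensity before and one after subtraction of local background, per the file headers of the deposited tables. The authors' probe values equalled the spot median for 156 of 156 named probes, and the deposited normalized ratio equalled that median divided by 1 constant per array. No source used here names the scanner or the image software.

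Samples were grouped by strain and condition from their titles. Spot medians were compared with a level of 50. Groups of 4 arrays were compared by exact permutation tests, two-sided, with Benjamini-Hochberg adjustment (Python 3.11.15). These treat strains and conditions as samples of a group, so p-values measure only the spread between arrays. For limma 3.58.1 (R 4.3.3), background was corrected by normexp (offset 50), log2 values of 4 spots were averaged, arrays were quantile normalized over 156 named probes, and the 20 with a spot median of 50 or more on 2 or more arrays were fitted to strain and condition (3 residual degrees of freedom; threshold 0.05). The fit was first tested on simulated data, with normal noise of a common SD and log2 1 added to 4 of 20 miRNAs. It called 100% of the changed and 1.56% of the unchanged miRNAs. The simulation held no outlying spots and no background correction, so it does not speak to dim probes such as these.

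The members, lists and tests were chosen with earlier results of these data known. Named miRNAs are the members, list members at 50 or more on 2 or more arrays, and the 3 with the highest Pearson r to each member. MiR-82, the let-7 family members below the level and the miRNAs at 50 on all flight arrays were named after their values were seen. Alternatives covered background, offset, spot summary, normalization, filters, prior, detection level and arrays left out; foreground medians and subtraction of each array's median named probe were added after seeing the data.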

Additional observations from a re-analysis of the deposited data

Results flagged for a closer look

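The miR-237 difference between static flight and the 1g centrifuge had opposite signs in the strains, -40 units in N2 and 49 in LS292, with all 4 spot medians at 50 or more. The difference between the strains was not tested, since each value rests on 2 arrays. Without the spots of high local background the values were -1 in N2 and 49 in LS292. From the foreground medians, static flight was the higher in both strains, with 177.5 against 159 in N2 and 157 against 121 in LS292.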

How the results depend on the processing

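No adjusted p of miR-237 passed 0.05 under any alternative run, and those of limma ran from 0.322 to 1. Between flight and ground, its unadjusted exact permutation p ran from 0.0286 to 0.971 over the alternatives. It was 0.0286 without the LS292 centrifuge array (difference 48.5, adjusted 0.114) and from the foreground. The LS292 centrifuge array was the lowest in flight and alone overlapped the ground, so leaving it out separates the groups. The exact permutation p was 0.971 with the spot mean and 0.371 with scaled spot medians. It was 0.114 without the N2 ground control, the LS292 ground control or the LS292 no-transport array. Lin-4 stayed at 0 arrays of 50 or more under all 5 alternatives. MiR-237 had 8 arrays at a level of 25 and 2 at 100. The signs of its small fitted log2 differences turned often. For static flight against ground, the log2 difference was 0.450 with background subtraction, 0.337 with no background correction, 0.105 with the median of spots, 0.094 with median scaling, 0.833 with scaled spot medians, 1.12 with the authors' ratios and 0.106 without high-background spots. For the centrifuge against ground it was -0.270 with background subtraction, -0.159 with median scaling and -0.236 with no normalization between arrays. For static flight against the centrifuge it was 0.720 with background subtraction, 0.201 with no background correction, 0.0082 with the median of spots, 0.253 with median scaling, 0.236 with no normalization, and 0.551 with scaled spot medians and with the authors' ratios. For ground against no transport it was -0.071 with median scaling, -0.0056 with quantiles over all probes, -0.612 with scaled spot medians and -0.767 with the authors' ratios. For flight against ground conditions it was -0.068 with median scaling. For LS292 against N2 it was -0.071 with no background correction, -0.0082 with the median of spots, -0.213 with median scaling, -0.285 with no normalization, -0.263 with scaled spot medians, -0.375 with the authors' ratios and -0.056 without high-background spots. Leaving out 1 array gave, in the same order of comparisons, -0.142 to 0.106, -0.024 to 0.107, -0.183 to 0.064, -0.020 to 0.079, -0.035 to 0.089 and -0.023 to 0.071; where an array was left out, the lone array of its condition was assumed to vary like the others. The cause of the turned signs was not tested. The spot-median difference of miR-237 between flight and ground was -2.75 with the spot mean, 51.8 without high-background spots, and 30 to 48.5 with 1 array left out. Between strains it was 28.8 with the spot mean and -25.0 to 2.67 with 1 array left out, the positive value being without the N2 centrifuge array. For lin-4 it was -99.6 with the spot mean, 3.75 from the foreground and -8.46 to 0.542 with 1 array left out for flight, positive without the N2 no-transport or the LS292 centrifuge array. Between strains it was 28.5 with the spot mean and 1.25 from the foreground. Counts of called miRNAs ran from 0 to 3 over the alternatives.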

Other observations

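The lowest background-subtracted readings of both probes came from single spots with a bright surround. The lin-4 spot in block 30 had a local background of 1329 in N2 and 79 in LS292 in static flight, of 49 and 637 on the centrifuge, of 100 and 178 in the ground control and of 48 and 58 without transport. Its foreground ran from 64 to 172. The miR-237 spot in block 34 had a local background of 880 on the N2 static flight array and 165 on the LS292 ground array, and of 50 to 75 on the other 6. On the N2 static flight array that spot had the highest miR-237 foreground of any, 337, and also the lowest background-subtracted value, -543.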
